A study of Mus musculus with 6 samples.

Results

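Amino acid transporter genes were taken as the rows of the gene table whose symbol belongs to the solute carrier families Slc1, Slc3, Slc7, Slc36, Slc38 and Slc43. Of the 27179 genes in the table, 44 matched. Slc7a6os and Slc36a1os are named for the strand opposite a carrier gene and do not encode carriers, which leaves 42 rows. Messenger RNA had been sequenced from primary vascular smooth muscle cells of the mouse aorta, the contractile cells of the artery wall, in 3 libraries of the group labelled WT (wild type) and 3 of the group labelled Bmal1 KO. Cells of both groups were kept for 7 days in a medium labelled diabetic, with glucose at 4.5 g/L and hydrogen peroxide at 0.3 mM, in DMEM with 10% fetal bovine serum. The labels name no Cre line, promoter, allele, age or sex. Nor do they tie a replicate to a culture or an animal of its own. The p-values below therefore cover the spread among these libraries, which may be technical.

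Amino acid carriers of the plasma membrane and lysosome set how much of each amino acid a cell holds. Slc3 proteins are heavy chains that bring Slc7 light chains to the plasma membrane, and each light chain decides which amino acids the pair exchanges. The transcription factor ATF4, made when amino acids run short or the endoplasmic reticulum is stressed, induces many of these genes, and the kinase complex mTORC1 reads the amino acids that they bring in. In smooth muscle, arginine carriers supply the substrate of nitric oxide and polyamine synthesis, and glutamine carriers feed growth.

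Libraries held between 32503525 and 44657471 reads assigned to genes, and values below are the authors' normalized counts. Bmal1, listed under its older symbol Arntl, had 529, 619 and 590.4 in the WT libraries and 1036, 941 and 1036 in those labelled Bmal1 KO (log2 fold change 0.79, SE 0.0910, adjusted p = 0.000135), so the count of the targeted gene was not reduced under the Bmal1 KO label but higher, and groups are named here by their labels. A count per gene does not show which exons the reads cover, so whether the transcript is intact was not tested. Smooth muscle markers (8 of 8 rose) summed to 52152 to 58187 in WT and 147829 to 157229 in the libraries labelled Bmal1 KO. Markers of other cells the culture could hold also moved: 5 of 7 endothelial genes rose (their list summed to 357 to 471 in WT and 794 to 1005 in the libraries labelled Bmal1 KO) and so did 5 of 6 tested macrophage genes (830.1 to 1041 in WT and 1818 to 2056 in the libraries labelled Bmal1 KO), while of 7 fibroblast genes 4 fell and 3 rose and of 6 mesothelial genes 4 fell and 2 rose. The summed fibroblast list was 136204 to 156856 in WT and 217610.0 to 232683 in the libraries labelled Bmal1 KO, and the summed mesothelial list 3629 to 4656 in WT and 7329 to 8056 in the libraries labelled Bmal1 KO. These 2 sums rose with their leading genes while 4 genes of each list fell. Col1a1 led the fibroblast list, with means of 103917 in WT and 207061 in the libraries labelled Bmal1 KO. Msln led the mesothelial list, with 356 in WT and 4525 in the libraries labelled Bmal1 KO. The part of these other cells in the changes below was not tested. Xist, transcribed from the inactive X chromosome of females, stood at 58.7 in WT and 3867 in the libraries labelled Bmal1 KO, and the 4 Y-linked genes Ddx3y, Eif2s3y, Kdm5d and Uty fell, so sex and label cannot be told apart. In bulk RNA, fewer cells of a type and less RNA per cell cannot be told apart either.

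Of the 44 genes, 35 had a normalized count of at least 10 in at least 3 libraries and could be tested. In the libraries labelled Bmal1 KO, 17 rose (48.6%), 15 fell (42.9%) and 3 (Slc7a6, Slc7a4 and Slc38a7) did not pass an adjusted p of 0.05 (limma, Benjamini-Hochberg adjustment over 16086 genes). Over all genes tested, 71.1% were called, 36.2% higher and 34.9% lower, so a call by itself is common here. The groups did not overlap in 32 of the 35 genes (91.4%), against 76.7% of all genes. At least 2-fold changes were called for 11 genes in each direction, where the share over all genes was 20.6% higher and 12.8% lower. The median log2 fold change of the 35 genes was 0.44, and that of all genes was -0.01. Leaving out the gene named for the opposite strand gave 17 higher and 14 lower among 34. All these counts include Slc7a13, Slc7a10, Slc38a5 and Slc36a2, which could be tested only through the group in which they are high.

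**Figure D1:**
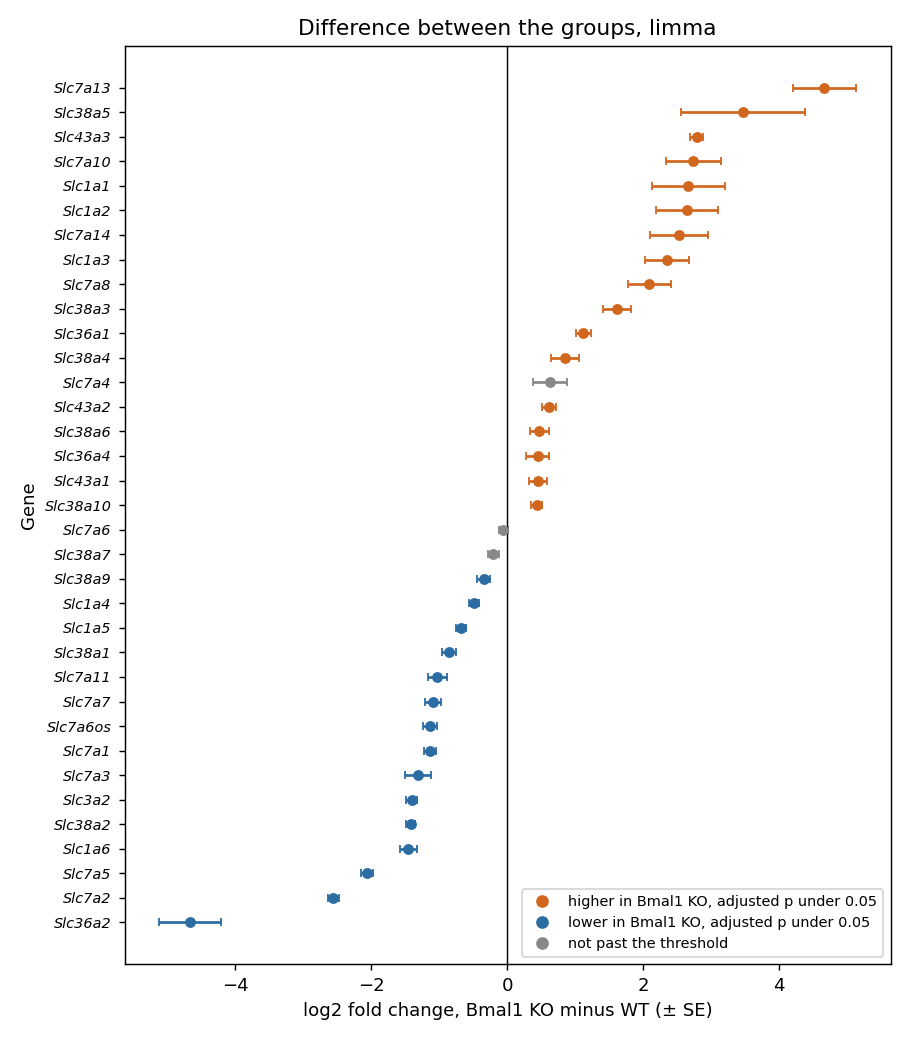
Log2 fold change (libraries labelled Bmal1 KO minus WT) with its standard error for the 35 tested genes, on log2(normalized count + 1), coloured by call. The falls run down to -4.66 for Slc36a2 and -2.56 for Slc7a2, and the rises reach 4.67 for Slc7a13 and 3.47 for Slc38a5; over the alternatives the scarce genes Slc36a2, Slc7a13 and Slc38a5 ran from -5.07 to -3.45, 2.56 to 7.63 and 2.34 to 4.29.

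Abundant and scarce carriers split differently. Among the 15 genes with a mean of at least 1000 normalized counts over the libraries, 9 fell, 4 rose and 2 did not pass, whereas of all genes at that level 39.6% fell and 33.9% rose. Among the 20 genes below 1000, 13 rose, 6 fell and 1 did not pass, beside 37.9% higher and 31.4% lower over all genes of that level. The abundant genes that fell were Slc3a2, Slc7a5, Slc7a2, Slc7a1, Slc38a2, Slc38a1, Slc1a5, Slc1a4 and Slc7a6os, and those that rose were Slc43a3, Slc38a10, Slc36a1 and Slc1a2. The 13 include Slc7a13, Slc7a10 and Slc38a5 and the 6 include Slc36a2, which could be tested only through the group in which they are high. No test was made of the difference between these bands.

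**Figure D2:**
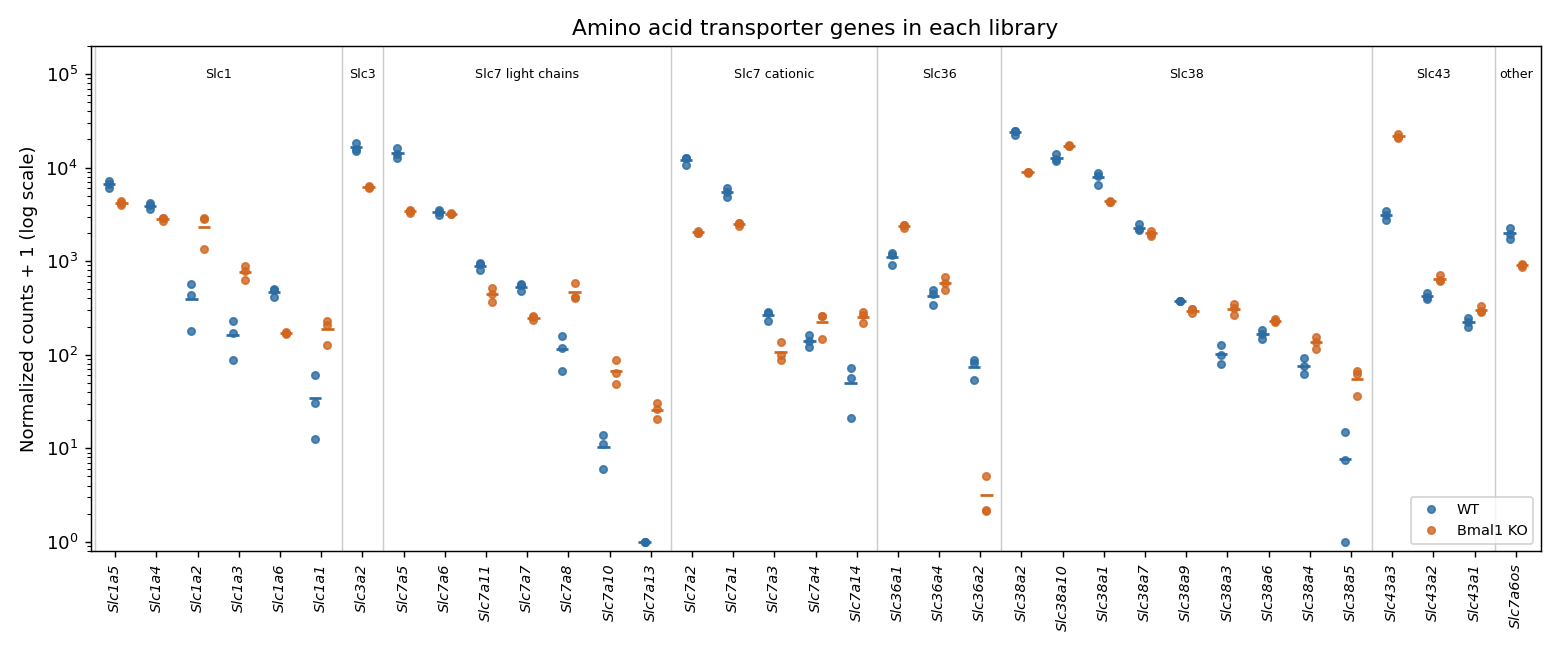
Normalized counts plus 1 (log axis) of the 35 tested genes in each of the 6 libraries, by family, with a short line at each group mean. Slc38a2, Slc3a2, Slc7a5 and Slc7a2 lie below WT in all libraries labelled Bmal1 KO, while Slc43a3 lies above.

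The heavy chain Slc3a2 (4F2hc or CD98; chromosome 19, 8706882 to 8723369, RefSeq GRCm38.p6) and its light chain Slc7a5 (chromosome 8, 121881146 to 121907686) fell together. They form LAT1, the exchanger that brings leucine and other large neutral amino acids into growing cells. Slc3a2 had 18267, 15989 and 15234 in the WT libraries and 6371, 6121 and 6180.1 in those labelled Bmal1 KO. The means ± SD (n = 3, as for every mean below) were 16496 ± 1579 in WT and 6224 ± 131 in the libraries labelled Bmal1 KO, a 2.65-fold fall (log2 fold change -1.40, SE 0.0781, adjusted p = 2.94e-06). Slc7a5 had 12605, 16026 and 14148 in the WT libraries and 3426, 3302 and 3499 in those labelled Bmal1 KO, a 4.18-fold fall (log2 fold change -2.06, SE 0.0899, adjusted p = 8.03e-07). In both genes every library labelled Bmal1 KO lay below every WT library and the WT libraries spread more widely.

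The other light chains went in different directions. Slc7a6, which exchanges cationic for neutral amino acids, held 3146, 3534 and 3372 in the WT libraries and 3199.7, 3299.6 and 3159 in those labelled Bmal1 KO, groups that overlap and did not pass (log2 fold change -0.06, adjusted p = 0.448, SE 0.0636). Slc7a7, its relative and the gene of lysinuric protein intolerance, had 564, 556 and 476 against 259, 233 and 255 in the same order, a 2.14-fold fall (log2 fold change -1.09, adjusted p = 7.87e-05). Slc7a11 encodes xCT, which takes up cystine for glutathione and releases glutamate. It had 797, 937 and 950.5 in the WT libraries and 514, 446 and 364 in those labelled Bmal1 KO, a 2.03-fold fall without overlap (log2 fold change -1.03, SE 0.140, adjusted p = 0.000346). Slc7a8 encodes LAT2, an exchanger with a wider range of neutral substrates than LAT1, and it rose 4.10-fold, from 117, 65.5 and 159 in the WT libraries and 409.6, 406 and 586 in those labelled Bmal1 KO (log2 fold change 2.09, SE 0.316, adjusted p = 0.000588). Replicate 2 was lowest in WT and replicate 3 was highest in the libraries labelled Bmal1 KO, still without overlap.

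Scarcer light chains also rose. Slc7a10 (Asc-1), a carrier of small neutral amino acids and D-serine, went from 9.32 ± 4.01 to 65.7 ± 19.7 (log2 fold change 2.74, adjusted p = 0.000527), and 17.9% of its exon bases overlap Lrp3 on the opposite strand. Slc7a13, which carries aspartate and glutamate in the kidney tubule with Slc3a1, had 0 reads in WT and 66 reads over the 3 libraries labelled Bmal1 KO, with a mean of 24.7 ± 5.18 normalized counts there. Set against the 3 reads that a count of 0 over the WT group allows, the observed 66 reads gave a ratio of 27.6. That ratio leaves out the counting error of the 66 reads. The lower limit of the exact 95% interval of the ratio of Bmal1 KO to WT (counting error only) was 21.9. Slc7a13, Slc7a10, Slc38a5 and Slc36a2 passed the filter on low values only through the group in which they are high, so a difference in them was to be found and their p-values are no support for one. Its partner Slc3a1 was too low to test, with 28 reads in WT and 5 in the other group.

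To compare genes with each other, counts were divided by the length of the longest annotated transcript. Summed over the light chains, normalized counts per kb were 5311 ± 537 in WT and 2145 ± 40.8 in the libraries labelled Bmal1 KO. Relative to Slc3a2 per kb this sum was 0.915 ± 0.156 in WT and 0.970 ± 0.0278 in the libraries labelled Bmal1 KO, with overlapping ranges. Per coding kb the ratio was 1.295 ± 0.222 in WT and 1.392 ± 0.0295 in the libraries labelled Bmal1 KO, so its level depends on the length used. The make-up of the sum differed between groups. Slc7a5 went from 76.2% ± 1.46 in WT to 45.2% ± 0.648 of it, and Slc7a6 from 16.9% ± 0.730 in WT to 40.0% ± 1.60. Slc7a8 took 0.537% in WT and 5.32% in the libraries labelled Bmal1 KO. Slc7a11 took 1.83% and 2.23%, or 4.77% and 5.74% when lengths of coding sequence were used. These shares describe transcripts, and no test was made on them.

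Arginine and lysine carriers of the Slc7 family fell for the most part. Slc7a2 (chromosome 8, 40862341 to 40922070), the inducible cationic carrier CAT-2, had 10598, 12622 and 12786 in the WT libraries and 2000.3, 2122 and 1982 in those labelled Bmal1 KO. With means of 12002 ± 1219 in WT and 2035 ± 76.2 in the libraries labelled Bmal1 KO, this was a 5.90-fold fall (log2 fold change -2.56, SE 0.0836, adjusted p = 1.95e-07), with no library of one group near the other. Slc7a1 encodes CAT-1, the housekeeping arginine carrier. It had 4808, 6114 and 5529 in the WT libraries and 2364, 2585 and 2534 in those labelled Bmal1 KO, a 2.20-fold fall (log2 fold change -1.13, adjusted p = 2.25e-05). Slc7a3 (CAT-3) had 277, 288 and 228 against 87.6, 134 and 99.4 in WT and in the libraries labelled Bmal1 KO, a 2.47-fold fall (log2 fold change -1.31, adjusted p = 0.000545). All 3 fell without overlap.

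Slc7a4 and Slc7a14 are relatives of the cationic carriers that are not established arginine carriers at the cell surface. Slc7a4 had 138, 119 and 161 in the WT libraries and 147, 255 and 260.5 in those labelled Bmal1 KO, overlapping groups that did not pass (log2 fold change 0.63, adjusted p = 0.0504), and 7 of 17 alternatives put it past the threshold. Replicate 1 of the libraries labelled Bmal1 KO was the one that overlapped WT, and without it the adjusted p was 0.00455. On the opposite strand, P2rx6 overlaps 13.3% of the Slc7a4 exon bases. Slc7a14, a lysosomal protein found in the retina and in neurons, rose 5.22-fold, with 55.0, 19.9 and 71.8 against 215, 265 and 286 (log2 fold change 2.53, adjusted p = 0.00110). Per kb, the summed cationic group was 2425 ± 233 in WT and 739.6 ± 51.9 in the libraries labelled Bmal1 KO. Slc7a2 went from 62.5% ± 1.25 in WT to 34.9% ± 1.93 of that sum and Slc7a1 from 31.5% ± 1.26 in WT to 47.0% ± 1.17, so Slc7a1 became the larger of the pair.

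**Figure D3:**
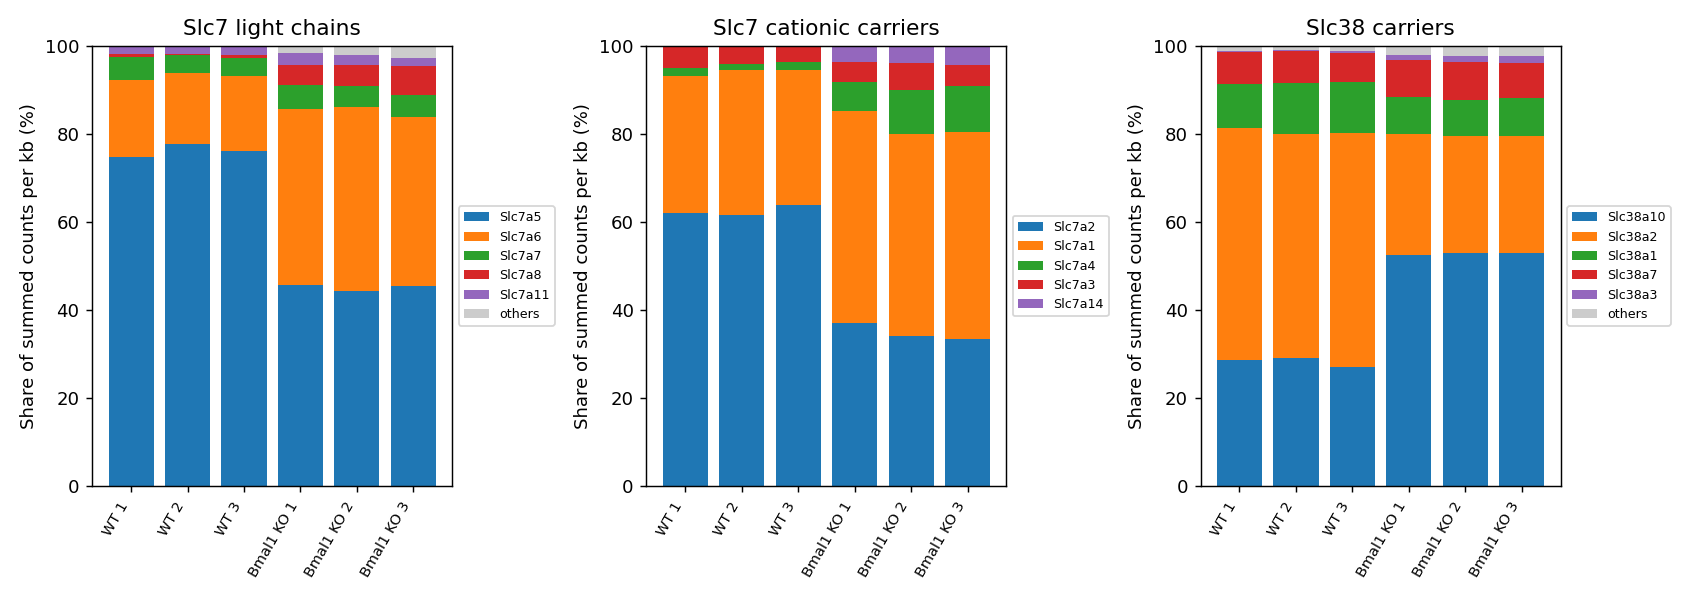
Share (%) of the summed normalized counts per kb of transcript in each of the 6 libraries, as stacked bars for the Slc7 light chains, the Slc7 cationic carriers and the Slc38 carriers. Slc7a5 takes 76.2% of the light chains in WT and 45.2% in libraries labelled Bmal1 KO, and the share of Slc38a2 is smaller and that of Slc38a10 larger there.

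In the Slc38 family of neutral amino acid carriers, Slc38a1 and Slc38a2, its most abundant uptake genes of the plasma membrane, fell, as did Slc38a9. Slc38a2 (SNAT2; chromosome 15, 96687392 to 96699728), which accumulates glutamine and alanine and is induced by amino acid lack and by hypertonic stress, had 22192, 24750.3 and 24444 in the WT libraries and 8964, 8948 and 8777 in those labelled Bmal1 KO. Its means were 23795 ± 1397 in WT and 8896 ± 104 in the libraries labelled Bmal1 KO, a 2.67-fold fall (log2 fold change -1.42, SE 0.0662, adjusted p = 1.15e-06). Slc38a1 (SNAT1), a glutamine carrier of many dividing cells, had 6593, 8860.4 and 8212 against 4307, 4329 and 4401, a 1.81-fold fall (log2 fold change -0.85, adjusted p = 0.000206). Both were abundant in every library, and the groups did not overlap in either. Slc38a9, the lysosomal arginine sensor of mTORC1, had 377, 378 and 373 against 304, 279 and 305, a 1.27-fold fall (log2 fold change -0.35, adjusted p = 0.0147). That call was lost without replicate 2 of the libraries labelled Bmal1 KO (adjusted p = 0.0576). Slc38a7 (SNAT7), which exports glutamine from lysosomes, had 2131, 2502 and 2207 against 1969.8, 2093 and 1873 and did not pass (log2 fold change -0.20, adjusted p = 0.0530), though the groups did not overlap and 6 of 17 alternatives put it past the threshold.

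Other Slc38 genes rose. Slc38a10, a widely expressed member found inside cells, had 11920.0, 14025 and 12283 in the WT libraries and 16874, 17637 and 17114 in those labelled Bmal1 KO, a 1.35-fold rise (log2 fold change 0.44, SE 0.0771, adjusted p = 0.00133). Slc38a3 (SNAT3), the glutamine carrier of liver and astrocytes, had 97.2, 78.8 and 127 against 265, 317 and 344, a 3.05-fold rise (log2 fold change 1.62, adjusted p = 0.000226). Slc38a4 (SNAT4), an imprinted gene of liver and placenta, had 74.3, 60.5 and 90.3 against 115, 137 and 154, a 1.80-fold rise (log2 fold change 0.85, adjusted p = 0.00733). None of these 3 overlapped. Slc38a6 had 146, 182 and 168 against 226, 237 and 224, a 1.39-fold rise (log2 fold change 0.47, adjusted p = 0.0147) that did not pass without replicate 2 of the libraries labelled Bmal1 KO (adjusted p = 0.0524). Slc38a5 (SNAT5), scarce in WT, went from 6.74 ± 6.91 to 54.1 ± 16.1 (log2 fold change 3.47, adjusted p = 0.00943), an 8.01-fold rise that became 16.8-fold without WT replicate 3. Per kb, the summed family was 9798 ± 717 in WT and 7112 ± 128 in the libraries labelled Bmal1 KO. Slc38a2 went from 52.2% ± 1.28 in WT to 26.9% ± 0.501 of that sum and Slc38a10 from 28.4% ± 1.09 in WT to 52.9% ± 0.291. This order depends on the length used. Per coding kb, the shares in the libraries labelled Bmal1 KO were 36.3% for Slc38a2 and 32.4% for Slc38a10, beside 58.0% and 14.3% in WT.

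In the Slc1 family both neutral carriers and the glutamate carrier Slc1a6 fell. Slc1a5 (ASCT2), the glutamine exchanger that works beside LAT1, had 6106, 7251 and 6687 in the WT libraries and 4391, 4168 and 3983 in those labelled Bmal1 KO, a 1.60-fold fall (log2 fold change -0.67, adjusted p = 0.000142). Slc1a4 (ASCT1), which carries serine, alanine and cysteine, had 3584, 4206 and 3993 against 2883, 2688 and 2859, a 1.40-fold fall (log2 fold change -0.48, adjusted p = 0.000676). The groups overlapped in neither gene. Of the high-affinity glutamate carriers, Slc1a6 (EAAT4), known from Purkinje cells, had 487, 499 and 412 against 169, 164 and 175, a 2.75-fold fall (log2 fold change -1.45, adjusted p = 2.48e-05).

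Slc1a1, Slc1a2 and Slc1a3 rose, and Slc1a7 was too low to test. Slc1a2 (GLT-1; chromosome 2, 102658239 to 102790784), the main glutamate carrier of astrocytes, had 572, 177 and 438 in the WT libraries and 1351, 2822 and 2860.4 in those labelled Bmal1 KO, a 5.92-fold rise (log2 fold change 2.64, SE 0.453, adjusted p = 0.00115). Slc1a3 (GLAST), also of glia, had 169, 86.2 and 227 in the WT libraries and 632, 894 and 788 in those labelled Bmal1 KO, a 4.80-fold rise (log2 fold change 2.35, adjusted p = 0.000389). Slc1a1 (EAAC1), which takes glutamate and cysteine into neurons and kidney cells, had 29.3, 11.6 and 59.9 against 125, 229 and 204 (log2 fold change 2.67, adjusted p = 0.00262). Its 5.54-fold rise became 9.10-fold without WT replicate 3, and 31.9% of its exon bases overlap 4430402I18Rik on the opposite strand. In all 3 genes, replicate 2 was the lowest WT library and replicate 1 the lowest of the libraries labelled Bmal1 KO. Their standard errors were several times those of Slc3a2 and Slc7a5.

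Markers of neural cells moved with these carriers. A list of 8 markers of astrocytes and neurons (Gfap, Aqp4, Aldoc, Rbfox3, Snap25, Syt1, Map2 and Tubb3), added after the values of these carriers had been seen, rose in 8 of 8. Its summed level ran from 1869.9 to 3936 in WT and 12311 to 16894 in the libraries labelled Bmal1 KO, 4.75-fold higher by the means, and none of its markers was at 0 in a group. Snap25, Syt1 and Tubb3 led the sum, with means of 4654, 3583 and 3126 in the libraries labelled Bmal1 KO. Gfap and Aqp4 added only 138 and 64.9 there, so percentages of the sum mainly compare with its leading genes. Single markers rose from 2.72-fold (Tubb3) to 6.43-fold (Aqp4), and Gfap rose 3.13-fold. That sum too was lowest in WT replicate 2 and, in the libraries labelled Bmal1 KO, in replicate 1. So were the smooth muscle markers Myh11 and Des and the macrophage markers Csf1r and Lyz2, though not Acta2 or Tagln. This pattern was thus not particular to neural markers. As a percentage of the marker sum, Slc1a3 was 4.99 ± 0.948 in WT and 5.10 ± 0.207 in the libraries labelled Bmal1 KO, and Slc1a2 was 11.9 ± 2.55 and 15.1 ± 3.64. The same percentage in WT and in the libraries labelled Bmal1 KO was 0.988 and 1.21 for Slc1a1, 1.46 and 1.69 for Slc7a14, 3.58 and 3.12 for Slc7a8, and 3.36 and 2.05 for Slc38a3. It was 0.289 and 0.432 for Slc7a10, 0.177 and 0.352 for Slc38a5, and 0 and 0.163 for Slc7a13. Among the other genes that rose, it was 113 and 145 for Slc43a3, a ratio of 1.28 beside 1.27 for Slc1a2. For the rest of them, this ratio of libraries labelled Bmal1 KO to WT was 0.401 for Slc36a1, 0.358 for Slc38a4 and 0.297 for Slc43a2. The ratio was 0.268 for Slc43a1, 0.258 for Slc38a6, 0.252 for Slc38a10 and 0.248 for Slc36a4, so these genes rose less than the marker sum. Of the 17 genes that rose, replicate 2 was the lowest WT library in 10 (58.8%, against 44.7% of all genes that rose), and replicate 1 the lowest of the libraries labelled Bmal1 KO in 13 (76.5%, against 42.9% of all genes that rose). The 4 tested of 6 Schwann cell markers, added at the same time, rose as well, and their list summed to 999 to 1501 in WT and 2204 to 3925 in the libraries labelled Bmal1 KO. Aqp4 and the Schwann cell marker Sox10 could be tested only through the libraries labelled Bmal1 KO, in which they are high. The part of other cells in the rise of these carriers was not tested.

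**Figure D4:**
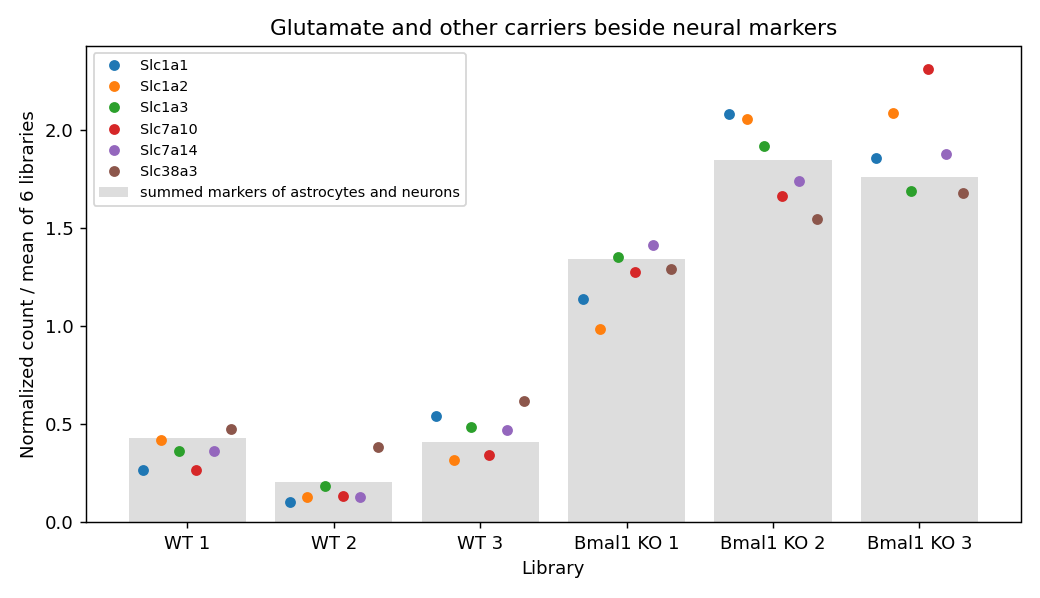
Normalized count divided by its mean over the 6 libraries, for Slc1a1, Slc1a2, Slc1a3, Slc7a10, Slc7a14 and Slc38a3 (points) and for the sum of 8 astrocyte and neuron markers (grey bars), in each library. Points and bars are low together in the 3 WT libraries and high in the 3 libraries labelled Bmal1 KO.

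Slc36 genes encode proton-coupled carriers that export small neutral amino acids from lysosomes or take them up at the cell surface. Slc36a1 (PAT1), the lysosomal member tied to mTORC1, had 913, 1218 and 1166 in the WT libraries and 2261, 2448 and 2422 in those labelled Bmal1 KO, a 2.16-fold rise without overlap (log2 fold change 1.12, SE 0.112, adjusted p = 6.36e-05). Slc36a4 (PAT4), a carrier of proline and tryptophan, had 341, 487 and 444 against 486, 675 and 577, a 1.37-fold rise with overlapping groups (log2 fold change 0.45, adjusted p = 0.0411). That call was lost in 8 of 17 alternatives, among them the fits without WT replicate 1 or 3 or replicate 2 or 3 of the libraries labelled Bmal1 KO, with adjusted p from 0.0527 to 0.142 in those 8. Over all 17 it ran from 0.00587 to 0.142. Slc36a2 (PAT2), a glycine and proline carrier that also marks brown fat, went the other way, from 73.4 ± 17.8 to 2.14 ± 1.68 (log2 fold change -4.66, adjusted p = 5.49e-05). With 249 reads in WT and 6 in the libraries labelled Bmal1 KO, the ratio was 33.0 (exact 95% interval 15.0 to 90.8, counting error only). The ratio of mean normalized counts was 34.3, and 62.7 without replicate 1 of the libraries labelled Bmal1 KO.

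All 3 Slc43 genes rose. Slc43a3 (chromosome 2, 84936545 to 84958509), which by sequence belongs to this family but carries purine nucleobases rather than amino acids, had 2775, 3468 and 3149.8 in the WT libraries and 21306, 22706 and 20619 in those labelled Bmal1 KO. Its means were 3131 ± 347 in WT and 21544 ± 1064 in the libraries labelled Bmal1 KO, a 6.88-fold rise (log2 fold change 2.79, SE 0.0894, adjusted p = 1.76e-07), with WT libraries all well below the others. Slc43a2 (LAT4), which lets large neutral amino acids leave cells without exchange, had 396, 418 and 461 against 704, 619 and 633, a 1.53-fold rise (log2 fold change 0.62, adjusted p = 0.000906). Slc43a1 (LAT3), of the same function, had 226, 196 and 243 against 283, 329.7 and 294, a 1.36-fold rise (log2 fold change 0.45, adjusted p = 0.0163) that did not pass without replicate 2 of the libraries labelled Bmal1 KO (adjusted p = 0.0660). The groups did not overlap in any of the 3. Slc7a6os, the neighbour of Slc7a6 on the other strand, fell 2.20-fold, with 2269, 1946 and 1739.7 against 911, 928 and 868 (log2 fold change -1.13, adjusted p = 3.66e-05).

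The order of transcript levels per kb differed between groups. In WT the highest were Slc3a2 at 5864 ± 561 normalized counts per kb, Slc38a2 at 5106 ± 299.8, Slc7a5 at 4054 ± 487 and Slc38a10 at 2784 ± 246. The ranges of neighbours among the first 4 did not overlap, whereas those of Slc38a10 and Slc1a5 did, as did those of each neighbouring pair from Slc7a6os down to Slc38a7. In the libraries labelled Bmal1 KO the order began with Slc43a3 at 8341 ± 412, Slc38a10 at 3759 ± 85.2, Slc3a2 at 2213 ± 46.5 and Slc38a2 at 1909 ± 22.3, each apart from the next. Slc43a3 had ranked 8 in WT and ranked 1 there, while Slc7a2 went from 7 to 14. The order depends on the length used. Per coding kb, Slc38a2 was first in WT at 15738, before Slc3a2 at 9732 and Slc7a5 at 9284, and Slc38a10, at 3897, lay below Slc7a2, Slc38a1 and Slc1a5. In the libraries labelled Bmal1 KO, Slc43a3 was again first at 14305, followed by Slc38a2 at 5884, Slc38a10 at 5262 and Slc3a2 at 3672.

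Of these carrier genes, 8 are established targets of ATF4: Slc3a2, Slc7a5, Slc7a11, Slc7a1, Slc7a3, Slc38a2, Slc1a4 and Slc1a5. All 8 fell, 6 of them at least 2-fold, with a median log2 fold change of -1.22. Of 21 genes of the amino acid stress response, 17 fell, 2 rose (the kinases Eif2ak2 and Eif2ak3) and 2 did not pass. Their median log2 fold change was -1.23. Atf4 itself went from 14478 ± 563 to 4117 ± 48.2, a 3.52-fold fall (log2 fold change -1.81, adjusted p = 1.59e-07). Ddit4, an inhibitor of mTORC1, fell 8.36-fold from 8202 to 981 (log2 fold change -3.06, adjusted p = 2.61e-08). Trib3, a pseudokinase that restrains ATF4, fell 10.4-fold from 3742 to 360.1 (log2 fold change -3.37, adjusted p = 1.05e-07), and Chac1, which degrades glutathione, fell 10.3-fold from 4529.7 to 440.1 (log2 fold change -3.36, adjusted p = 1.98e-07). Median values are set beside -0.01 for all genes tested, and 34.9% of those fell.

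**Figure D5:**
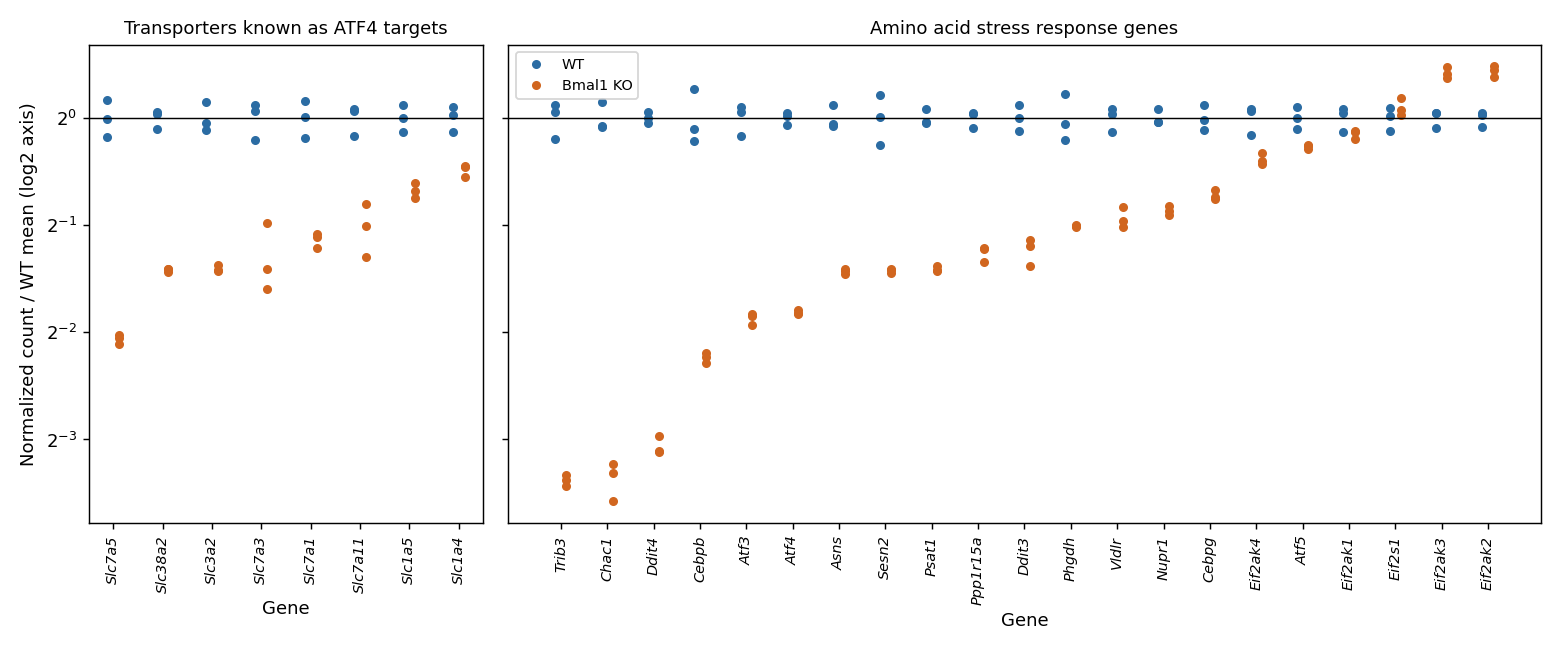
Normalized count in each of the 6 libraries divided by the WT mean (log2 axis), for the 8 carrier genes that are known ATF4 targets and for 21 genes of the amino acid stress response. All 8 carriers lie below 1 in the 3 libraries labelled Bmal1 KO, as does Atf4.

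Promoter sequences of RefSeq (GRCm38.p6, from 250 bases before to 50 bases after each start) were found for 33 of the 44 genes. They were searched on both strands for TGATGNAAN (the composite element of ATF4 and C/EBP), TGACNNNGC (the antioxidant response element) and the E-box CACGTG, which CLOCK and BMAL1 bind. A match describes letters and not a bound site. Shown first, with matches in capitals and from 120 bases before to 10 bases after the start, are the promoters of the most abundant ATF4 targets and subunits that the table holds. They lie at chr15:96699719-96699848 (- strand), chr19:8713888-8714017 (- strand), chr5:148399895-148400024 (- strand) and chr11:20332704-20332833 (- strand), and the genes are those whose falls are given above.
Slc38a2: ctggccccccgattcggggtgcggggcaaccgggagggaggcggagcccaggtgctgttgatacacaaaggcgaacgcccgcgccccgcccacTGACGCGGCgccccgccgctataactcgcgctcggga
Slc3a2: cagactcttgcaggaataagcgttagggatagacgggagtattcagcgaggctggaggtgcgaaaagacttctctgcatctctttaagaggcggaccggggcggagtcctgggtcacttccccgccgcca
Slc7a1: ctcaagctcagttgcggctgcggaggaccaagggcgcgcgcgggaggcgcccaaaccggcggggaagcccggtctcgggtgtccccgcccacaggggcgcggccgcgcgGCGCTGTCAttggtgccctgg
Slc1a4: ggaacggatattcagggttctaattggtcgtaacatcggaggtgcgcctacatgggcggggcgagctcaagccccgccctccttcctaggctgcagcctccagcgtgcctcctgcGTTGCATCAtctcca
The Slc1a4 stretch holds the composite element across the start, Slc38a2 and Slc7a1 each hold an antioxidant response element, and Slc3a2 holds none of these letters. Slc7a5 and Slc1a5 had no entry.

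The 33 member genes had 44 promoters, as a gene can have several starts. The composite element was found in 3 of these genes, Slc7a11, Slc1a4 and Slc7a7. It was in 4 member promoters (9.09%) and in 3.95% of the 32851 promoters of the table. All 3 genes fell, where 42.9% of the tested members did. The E-box was found in 7 member genes, in 7 member promoters (15.9%) and in 7.15% of all promoters. Of these genes, Slc43a1, Slc7a14, Slc36a1 and Slc38a5 rose, Slc1a6 fell, Slc38a7 did not pass and Slc1a7 was not tested. Among the tested members 48.6% rose. The antioxidant response element was found in 6 genes, in 7 member promoters (15.9%) and in 12.4% of all promoters. No test was made of these shares. Shown next, chosen after their values were seen, are the genes with most matches of the first 2 motifs, at chr3:50443604-50443733 (- strand), chr14:54417935-54418064 (- strand) and chr11:55204220-55204349 (+ strand).
Slc7a11: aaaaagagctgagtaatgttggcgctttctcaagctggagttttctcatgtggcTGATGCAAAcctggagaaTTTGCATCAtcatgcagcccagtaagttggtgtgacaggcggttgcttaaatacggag
Slc7a7: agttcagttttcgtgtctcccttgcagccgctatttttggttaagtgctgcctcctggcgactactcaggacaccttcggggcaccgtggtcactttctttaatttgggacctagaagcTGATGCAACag
Slc36a1: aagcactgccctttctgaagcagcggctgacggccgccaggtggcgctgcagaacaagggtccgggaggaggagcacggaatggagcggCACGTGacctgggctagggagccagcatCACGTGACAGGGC
Slc7a11 holds the composite element in both orientations, starting 66 and 48 bases before the start. The Slc7a7 stretch holds it 1 base before the start, and a second match lies 141 bases before, outside the stretch shown. Slc36a1 holds the E-box 31 and 3 bases before the start, and its last run of capitals is an E-box overlapped by an antioxidant response element. As given above, Slc7a11 fell 2.03-fold and Slc7a7 2.14-fold, and Slc36a1 rose 2.16-fold.

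Genes that sense amino acids for mTORC1 moved in both directions. Of 29 such genes, 13 fell, 5 rose and 11 did not pass, where 34.9% of all genes fell and 36.2% rose. Their median log2 fold change was -0.16. Flcn, which lets the complex act on TFEB, fell 2.20-fold (log2 fold change -1.14, adjusted p = 5.63e-06), as did its partner Fnip2 (2.12-fold, adjusted p = 8.72e-05). Tfeb, the lysosomal transcription factor itself, fell 2.18-fold (log2 fold change -1.11, adjusted p = 4.87e-05). Castor2, a relative of the arginine sensor CASTOR1, rose 1.93-fold (log2 fold change 0.95, adjusted p = 3.54e-05). Beside them stand the lysosomal members given above, Slc38a9 with a 1.27-fold fall and Slc36a1 with a 2.16-fold rise.

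Genes of glutathione and cystine handling, a list that also holds Keap1, Nfe2l2 and Otub1, went both ways. Of 15, 5 rose, 6 fell and 4 did not pass, shares near the 36.2% higher and 34.9% lower of all genes. Gclc, the catalytic subunit of the first step of glutathione synthesis, rose 4.25-fold (log2 fold change 2.09, adjusted p = 2.56e-07), and Gss, which makes the second step, rose 2.54-fold (log2 fold change 1.35, adjusted p = 1.35e-05). Cd44, a surface glycoprotein of which a variant holds xCT at the membrane, rose 2.57-fold (log2 fold change 1.36, adjusted p = 5.67e-07). Cth, which makes cysteine from cystathionine, fell 17.9-fold (log2 fold change -4.16, adjusted p = 2.64e-08). Gclm, the regulatory partner of Gclc, did not pass (log2 fold change 0.12, adjusted p = 0.0944) and is named here after its value was seen.

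Amino acid carriers of other families served as the wider set. Of 36 in the table, 28 were tested, with 13 higher (46.4%), 9 lower (32.1%) and 6 not passing. Of the member genes 48.6% were higher and 42.9% lower, and of all genes tested 36.2% and 34.9%. Slc6a9, the glycine carrier GlyT1, fell 2.62-fold from 2253 to 861 (log2 fold change -1.38, adjusted p = 7.19e-06). Slc16a10, the aromatic amino acid carrier TAT1, fell 3.16-fold from 779 to 247 (log2 fold change -1.66, adjusted p = 7.19e-06). Sfxn3, a mitochondrial serine carrier, rose 1.68-fold (log2 fold change 0.75, adjusted p = 3.91e-05). Slc17a8, which loads glutamate into vesicles, had 7 reads in WT and 916 in the libraries labelled Bmal1 KO, a ratio of 164 (exact 95% interval 79.5 to 410.2, counting error only), and its ratio of means rose from 159 to 248 without WT replicate 3. The 13 higher include Slc17a8, Slc15a2, Slc25a18 and Slc6a7, which passed the filter on low values only through the group in which they are high. Their calls are no support for a difference.

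The remaining 9 member genes (Slc1a7, Slc3a1, Slc7a9, Slc7a12, Slc7a15, Slc36a1os, Slc36a3, Slc38a8 and Slc38a11) were too low to test, at 0 to 12.4 normalized counts in any library. Slc7a12 had 0 reads in all 6 libraries. The subunits of the kidney cystine carrier, Slc3a1 and Slc7a9, were at 28 and 0 reads in WT and 5 and 4 reads in the libraries labelled Bmal1 KO. Prepl overlaps 26.5% of the Slc3a1 exon bases on the opposite strand.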

How the data were processed

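Polyadenylated RNA of 6 libraries, 3 per label, was measured, per the labels' protocols, by an Illumina stranded mRNA kit on 1.0 µg of RNA. The labels give all 6 the same batch. Trimmomatic, HISAT2, featureCounts and mm10 are named in the submitters' processing notes, and neither annotation nor strand setting is given in the sources used here. Without the strand setting, genes that overlap on opposite strands may share reads.

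The authors' deposited table gives a non-negative signal for 27179 genes, a normalized count. Each library has 1 step of which all its values are whole multiples (100%, within 0.01), so the deposited signal could be turned back into reads. Every column could be mapped to its library by name, with 0 left over.

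Limma was fitted to log2(value + 1), with eBayes and a trend, for genes with at least 10 in at least 3 libraries. P-values were adjusted by Benjamini-Hochberg over all 16086 genes tested, with a threshold of 0.05. Differences are Bmal1 KO minus WT. On this scale, the log2 fold change of a low gene is a difference of mean logs that depends on the pseudocount and can differ from the log of its fold. Folds are ratios of group means of normalized counts. Every adjusted p is limma's unless another tool is named. Exact permutation of 3 against 3 libraries cannot go below p = 0.1 and was not used.

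Members, lists and markers were chosen with earlier results of these data known, and the 2 lists of neural markers after the members' values were seen. Named were all members with a mean of at least 100 (with each library's value), tested members below it (with group values), members not tested (by range), Arntl, and from each of the other lists the 4 genes at most whose adjusted p was smallest. Coordinates and promoters are RefSeq's for GRCm38.p6, and transcript lengths and exon overlaps are from GENCODE. Alternatives were TMM, upper-quartile and library-total scaling, pseudocounts of 0.5 and 5, no filter and a filter of 50, a replicate block, leaving out each library, edgeR and DESeq2 on recovered reads, and voom. The fit was also run on simulated data in which, unlike here, only a small part of the genes differed. No result here rests on that run. Versions were limma 3.58.1, DESeq2 1.42.0, edgeR 4.0.16 and R 4.3.3.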

Additional observations from a re-analysis of the deposited data

How the results depend on the processing

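Across 17 alternatives, the 35 tested genes kept their direction in all 592 gene results, with 568 on the same side of the threshold, 11 calls lost and 13 gained. The lost calls were of Slc36a4, Slc38a6, Slc38a9 and Slc43a1, and the gained ones of Slc7a4 and Slc38a7. Slc7a10, Slc7a13 and Slc38a5 dropped out under the filter of 50. Member genes higher numbered 14 to 18 and lower 14 to 16, and without 1 library the ranges were 14 to 18 and 14 to 16. With the replicate number as a block, 18 members were higher and 16 lower, and 5869 and 5687 of all genes. All 136 counts of calls stayed within 1.5 times the main value. Same-numbered libraries had correlations of -0.004, 0.026 and 0.084 of their deviations from group means, and not every library correlated best with its own number, so numbers alone do not pair them. Other scalings put the median log2 fold change of all genes between -0.09 and 0.03. Genes under 10 reads in a group are limited by depth.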
